A study of Drosophila melanogaster with 16 samples.

Results

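The mitochondrial ribosome is the machine inside mitochondria that translates the few proteins encoded by mitochondrial DNA, nearly all of them core subunits of the respiratory chain and ATP synthase. Its protein subunits are encoded in the nucleus, made in the cytosol and imported, and they assemble with mitochondrial ribosomal RNA into a large subunit (genes named mRpL), which forms the peptide bond, and a small subunit (mRpS), which reads the messenger. In flies the pathway has a textbook link with seizures, since mutants of tko, which encodes the mitochondrial counterpart of ribosomal protein S12, are bang-sensitive, that is, they have seizures after a mechanical shock. Members were chosen by name alone, as the genes on the array whose symbol starts with mRpL or mRpS. Another 1 gene with this prefix was left out and is not analysed here. This gave 47 genes, 29 of the large and 18 of the small subunit, among 13059 features (6793 named genes and the remaining pairs of spots without a single gene name). They sat on 106 rows of the table, 2 rows for 41 members and 4 rows for the other 6.

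The study fed pentylenetetrazol (PTZ), a chemoconvulsant that blocks GABA-gated chloride channels, to virgin females of the wild type strain Oregon-R and compared the RNA of their heads with that of females kept on normal food (NF). Flies were 3 to 4 days old at the start, PTZ was given at 8 mg/ml in the food, and a vial held 30 flies at the beginning. PTZ flies were taken after 12 hrs, after 2 days, after 7 days, and on day 14 following 7 days on PTZ and 7 further days on NF, which is the withdrawal group. NF flies of the same vial set were taken alongside on each occasion. Each array compared a pool of PTZ heads directly with a pool of NF heads of the same set, so that every value below is a log2 ratio of PTZ over NF and not a level, and a value of 0 means equal signal. There were 4 arrays per time point, 16 in all, replicates 1 and 2 with PTZ in Cy5 and replicates 3 and 4 with PTZ in Cy3. The array labelled 7th day replicate 4 has a treatment text that describes the withdrawal schedule, in conflict with its title. Some results of the 7th day are therefore also given without it. The 7th day means and the differences from other time points include it unless stated.

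Coverage of the members was incomplete, which limits all that follows. An array gave values for 14 to 40 of the 47 members. A member was tested at a time point where at least 3 of the 4 arrays gave a value, which left 23 members at 12 hrs, 24 on the 2nd day, 30 on the 7th day and 22 on the 14th day. Only 9 members were tested at all 4 time points, and 6 were tested at none (mRpL1, mRpL13, mRpL22, mRpL45, mRpL48 and mRpL55, all of the large subunit). The share with no tested time point was 12.8% of members, against 28.7% of all features. Of the 5 other symbols looked for, under which mitochondrial ribosomal proteins are also listed, tko and bonsai were not among the genes named on the array, and CG4679 (mRpS39) was, with means of 0.09 (12 hrs), 0.02 (2nd day) and 0.16 (7th day). The plot of the values on every array shows how scattered the measured members are.

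**Figure D1:**
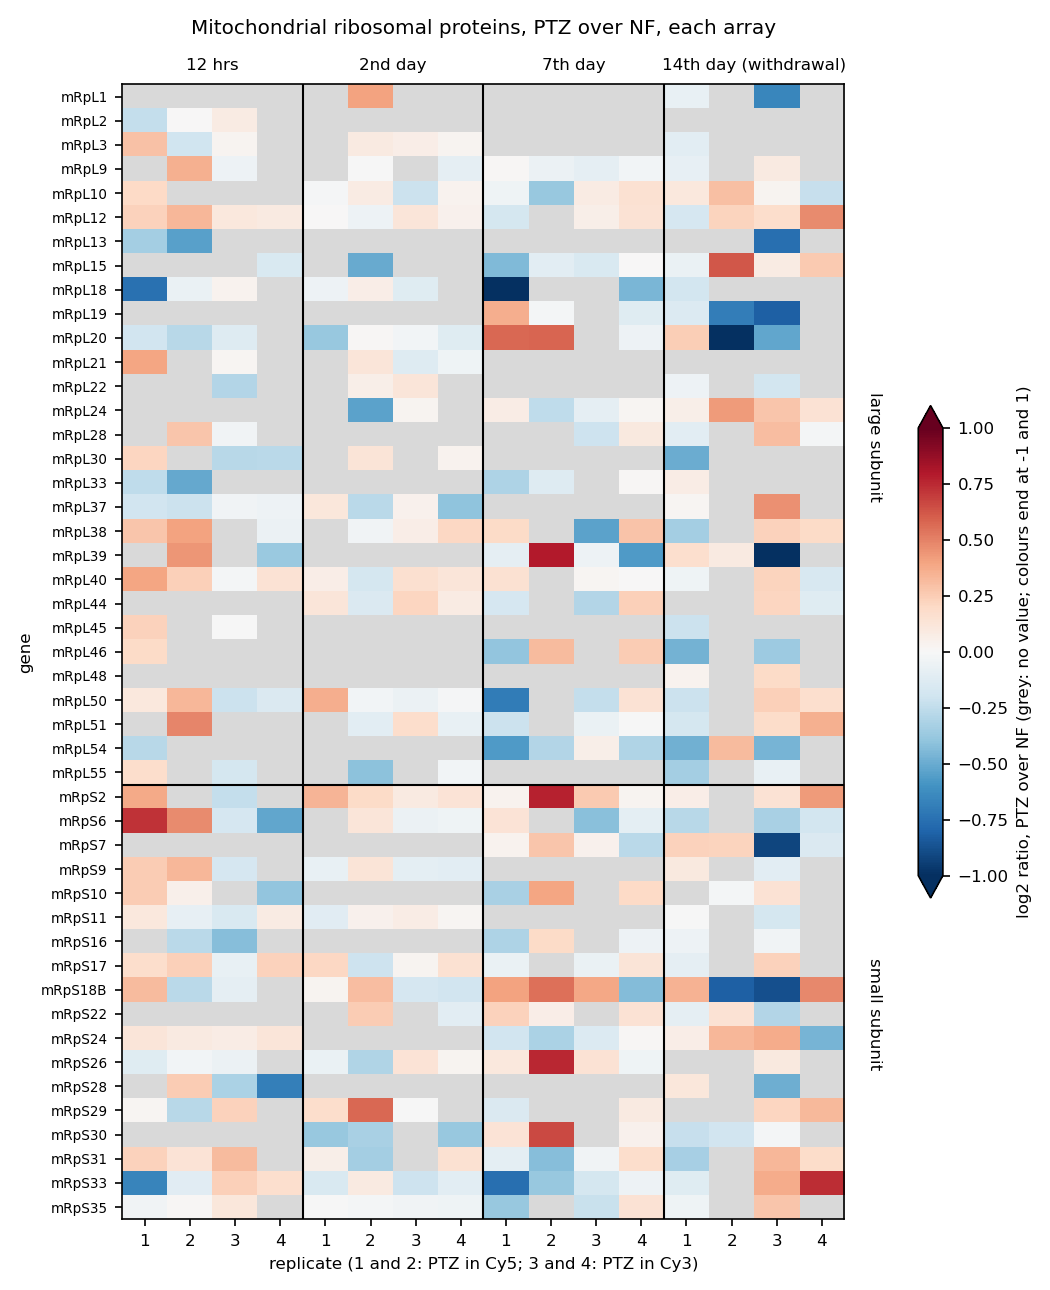
Log2 ratio of PTZ over NF for each of the 47 members (down the page, large subunit above small subunit) on each of the 16 arrays (across, replicates 1 to 4 of each time point). Red is higher in PTZ, blue is lower in PTZ and grey has no value. Grey cells are common throughout, and few members hold 1 colour over the 4 arrays of a time point.

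Across the series the replicates did not agree well. After the ratios were turned to PTZ over NF, pairs of arrays of the same time point and opposite dye had a Spearman correlation over all features of -0.44 to -0.32 at 12 hrs, -0.39 to -0.08 at day 2, -0.08 to 0.34 at day 7 and -0.37 to 0.35 at day 14. For pairs with the same dye the ranges were 0.37 to 0.58, 0.32 to 0.43, -0.08 to 0.43 and -0.06 to -0.04 in the same order. At 12 hrs arrays of the same dye orientation thus resembled each other and those of opposite orientation ran against each other, among the members too, where same-dye pairs had 0.60 to 0.78 and opposite-dye pairs -0.45 to -0.14. Had the arrays with PTZ in Cy3 not been turned, limma would have called 7 of 23 members at 12 hrs, with 32.1% of all features. The sources give the dyes of each array and the ratio as Cy5 over Cy3, but do not say whether swapped arrays were turned before deposit. On the 2nd day opposite-dye pairs also all ran negative over all features, though not among the members (-0.54 to 0.52). Unturned, 7.92% of all features but 0 of 24 members would have been called there, against 0.222% of all features turned. A dye effect and ratios that already ran as PTZ over NF cannot be told apart at 12 hrs or on the 2nd day. The direction of the values at both is therefore uncertain, and turning applies to all 4 time points alike. On the 7th and 14th day opposite-dye pairs ran both ways over all features, so that the direction is not settled there either. The labels give the tissue as head. Ratios hold no level, so the tissue could not be checked by how strongly its markers are expressed, but 5 of the 6 eye genes listed and found on the array were measured well enough to be tested at every time point. In whole heads, fewer cells of a type and less RNA per cell cannot be told apart.

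None of the members tested passed the test at any time point. By limma at a Benjamini-Hochberg adjusted p under 0.19, the highest false discovery rate the study used, 0 of 23, 0 of 24, 0 of 30 and 0 of 22 members were called at 12 hrs and on the 2nd, 7th and 14th day, where 0%, 0.222%, 0% and 0% of all features were called. At an unadjusted p under 0.05 there were 0 members at 12 hrs (2.34% of all features), 2 on the 2nd day (4.82%), 1 on the 7th day (8.4%) and 1 on the 14th day (2.18%). These 4 are mRpS30, mRpS2, mRpS33 and mRpL19. SAM, the permutation method of the study, was rewritten here and run on the re-centred values with all sign changes of the arrays. It called 20 of 5415 features on the 2nd day (17.5% false discovery rate), all lower in PTZ, among them 1 member, mRpS30. At 12 hrs and on the 7th day it called 1 feature each, on the 14th day 0, and none was a member. The study listed more genes lower in PTZ on the 2nd and 7th day than this version called.

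The member means lay close to 0 and on either side of it. In time order their median was -0.01, -0.00, -0.03 and 0.04, against 0.00, 0.00, 0.00 and -0.01 over all features tested. Below 0 were 12, 13, 17 and 9 members at the successive time points, and above 0 were 11, 11, 13 and 13. Only mRpL19 on the 14th day had a mean beyond 0.5 in either direction.

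How far a difference could have been missed differed between the time points. The 95% interval of the mean lay within 0.5 on either side of 0 for 17 of 23 members at 12 hrs, 22 of 24 on the 2nd day, 19 of 30 on the 7th day and 4 of 22 on the 14th day. Within 1 on either side, a 2-fold difference, lay the intervals of all 23, 24 and 30 tested members at 12 hrs and on the 2nd and 7th day, and of 20 of 22 on the 14th day. The exceptions on the 14th day were mRpL19 and mRpL20. For the values as turned, the intervals were thus tightest on the 2nd day and loosest after withdrawal, as seen in the plot of means with intervals. They bound a difference between PTZ and NF only if turning the arrays with PTZ in Cy3 was right. That is uncertain at 12 hrs and on the 2nd day, and is not settled for the 7th and 14th day either.

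**Figure D2:**
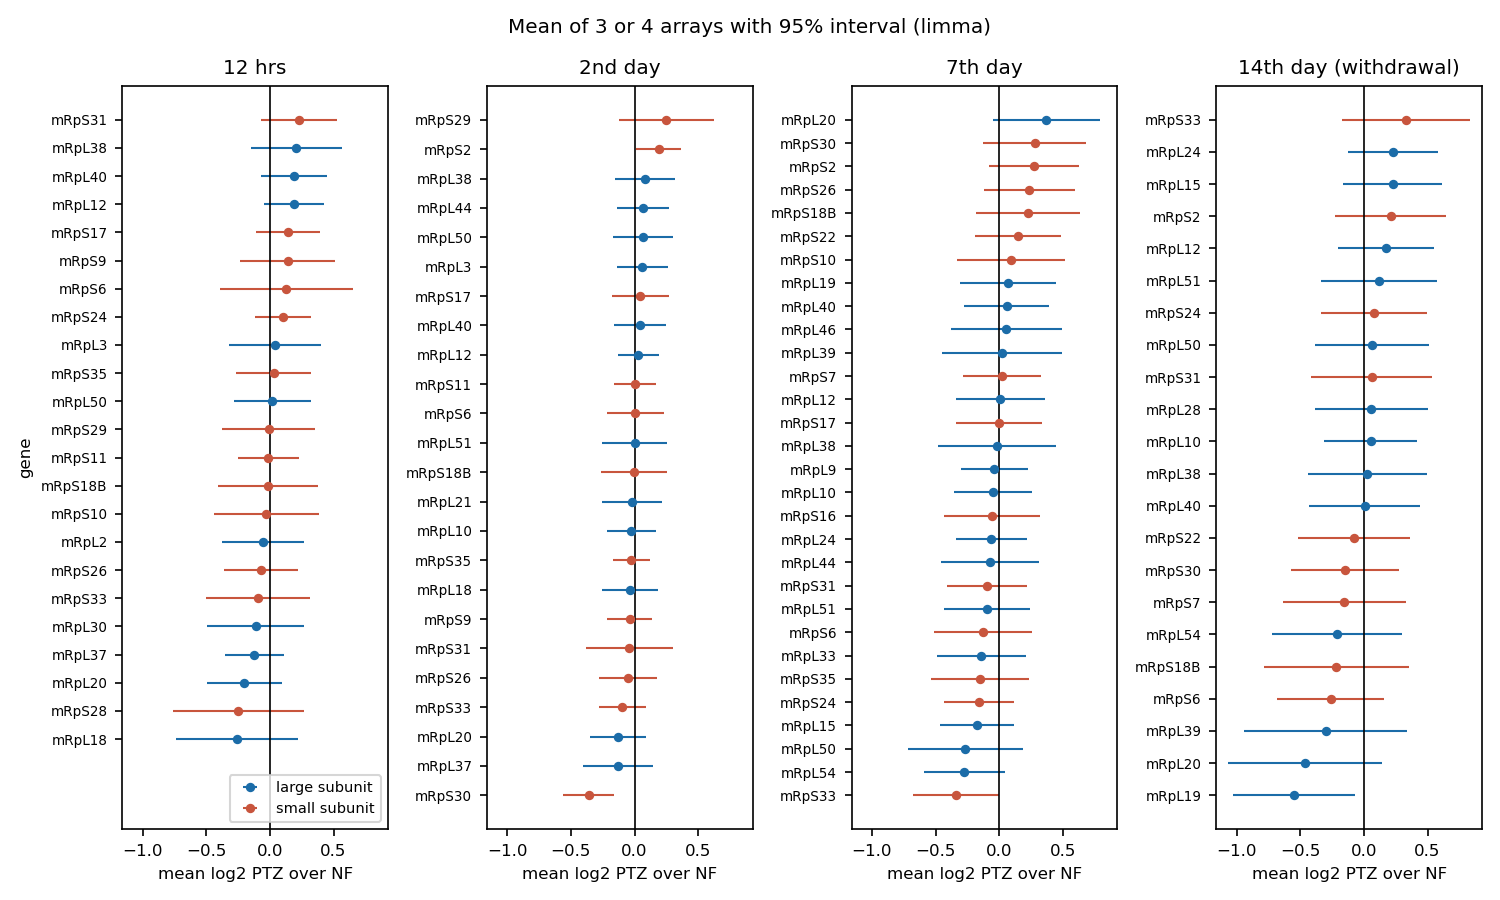
Mean log2 ratio of PTZ over NF of each tested member with its 95% interval from limma (3 or 4 arrays), ordered by the mean at each time point, large subunit in blue and small subunit in red. Nearly all intervals cross 0, and they are widest on the 14th day, when 4 of 22 lay within 0.5 of 0.

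The subunits were compared on each array, over the members tested at that time point. The median of the large subunit means was -0.02, 0.02, -0.04 and 0.05 at 12 hrs and on the 2nd, 7th and 14th day, and that of the small subunit means -0.01, -0.02, 0.01 and -0.08. With mRpS30 counted as small by its name, the 7th day large subunit median was below the small subunit median on all 4 arrays. The large minus small differences were -0.11, -0.36, -0.03 and -0.01 in replicates 1 to 4, so that 1 array carried most of it. At 12 hrs the differences were 0.01, -0.05, 0.05 and -0.14, for the 2nd day 0.04, -0.10, 0.08 and 0.07, and for the 14th day -0.02, 0.12, 0.19 and -0.02. The sign of the subunit difference was therefore mixed over replicates at these 3 time points. Without replicate 4 on the 7th day, the median of the large subunit means was -0.10. With any 1 array of that day left out, the large subunit median ran from -0.10 to -0.02. That of the small subunit ran from -0.03 to 0.05. In mammals mRpS30 sits in the large subunit despite its name, and with it counted there the 7th day medians were -0.04 for the large and -0.00 for the small subunit. Differences on each array were not computed that way. The -0.01 of replicate 4, where mRpS30 was at 0.04, is small enough to depend on its placing.

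The members also divide by origin, into those with a counterpart in the bacterial ribosome and those found only in mitochondria. The 27 with a bacterial counterpart had medians of -0.01 (13 tested), 0.00 (12), -0.02 (16) and 0.06 (12) at the 4 time points. For the 19 found only in mitochondria the medians were 0.02 (9 tested), -0.01 (12), -0.05 (14) and 0.02 (10). mRpS28 was left out of this division. All these medians lay within 0.1 of 0.

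mRpS30, whose protein has no bacterial counterpart, was the member with the smallest p. On the 2nd day it stood at -0.38, -0.32 and -0.38 in replicates 1, 2 and 4, with no value in replicate 3, a mean of -0.36 (SD 0.03, n = 3; 95% interval -0.56 to -0.16) or 0.779-fold. With the arrays with PTZ in Cy3 turned, all 3 values were lower in PTZ and close to each other, in both dye orientations. The sign of replicate 4 rests on that turning. The adjusted p by limma was 0.608, so that the difference did not pass the test over all features. On the 7th day mRpS30 was at 0.13, 0.66 and 0.04 in replicates 1, 2 and 4 (mean 0.28), and on the 14th day at -0.23, -0.19 and -0.02 in replicates 1, 2 and 3 (mean -0.15). The 7th day values lay above those of both the 2nd and the 14th day without overlap, as did 1.95% of all features over the 2nd day. The 7th minus 2nd day difference was 0.64 (SE 0.19, limma adjusted p = 0.735) and the 14th minus 7th day difference -0.43 (SE 0.23, limma adjusted p = 0.675).

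mRpS2, the counterpart of a bacterial small subunit protein, was above 0 on every array that measured it from the 2nd day on. Its 2nd day values were 0.34, 0.20, 0.09 and 0.13, with a mean of 0.19 (SD 0.11, n = 4; 95% interval 0.01 to 0.37; limma adjusted p = 1.0). It was at 0.03, 0.77, 0.26 and 0.03 on the 7th day (mean 0.27) and at 0.06, 0.14 and 0.42 in replicates 1, 3 and 4 of the 14th day (mean 0.21). At 12 hrs too few arrays measured it for a test, and it was at 0.38 on a Cy5 array of PTZ but -0.24 on a Cy3 one. Of all features, 6.46% were above 0 on every array of the 2nd day, 10.5% on the 7th day and 5.49% on the 14th day.

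mRpS33, a small subunit protein without bacterial counterpart, was below 0 on all 4 arrays of the 7th day. The values were -0.75, -0.38, -0.17 and -0.05, with a mean of -0.34 (SD 0.31, n = 4; 95% interval -0.68 to -0.00; limma adjusted p = 0.589), where 10.7% of all features were below 0 on every array. Both arrays with PTZ in Cy5 were lower than both with PTZ in Cy3. After withdrawal it was at -0.12, 0.37 and 0.74 in replicates 1, 3 and 4 (mean 0.33), so that the groups overlapped through replicate 1. There too the array with PTZ in Cy5, replicate 1, was lower than both with PTZ in Cy3. The 14th minus 7th day difference was 0.67 (95% interval 0.09 to 1.25; limma adjusted p = 0.648). This difference was not balanced for dye, since replicate 2 of the 14th day, with PTZ in Cy5, gave no value. At 12 hrs mRpS33 also split by dye. It was at -0.66 and -0.12 in replicates 1 and 2, with PTZ in Cy5. In replicates 3 and 4, with PTZ in Cy3, it was at 0.24 and 0.17.

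mRpL20, the counterpart of a bacterial large subunit protein that acts early in assembly, had the highest mean on the 7th day. It was at 0.58, 0.58 and -0.05 in replicates 1, 2 and 4 (mean 0.37, SD 0.36, n = 3; 95% interval -0.05 to 0.79). The array with PTZ in Cy3, which is also the one with the conflicting label, stood apart from the other two. At 12 hrs mRpL20 was below 0 on all 3 arrays, at -0.19, -0.28 and -0.13, and on the 2nd day at -0.38, 0.01, -0.02 and -0.12. On the 14th day its 3 values spread over more than a 2-fold range, at 0.25, -1.11 and -0.52 (mean -0.46, SD 0.68). The 7th minus 12 hrs difference was 0.57 (limma adjusted p = 0.757), the 7th minus 2nd day difference 0.50 (limma adjusted p = 0.735) and the 14th minus 7th day difference -0.83 (limma adjusted p = 0.648). Only the first of these was without overlap between the arrays, and 2.17% of all features were higher on the 7th day in this way.

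mRpL19, a large subunit protein with a bacterial counterpart, was measured on the 7th and 14th day only. It was at 0.36, -0.02 and -0.12 in replicates 1, 2 and 4 of the 7th day (mean 0.07) and at -0.14, -0.69 and -0.82 in replicates 1, 2 and 3 of the 14th day (mean -0.55, SD 0.36, n = 3; 95% interval -1.03 to -0.07; 0.683-fold). All 3 withdrawal arrays were below the lowest 7th day array, by little in replicate 1. The 14th day mean had an adjusted p of 1.0 by limma, and the 14th minus 7th day difference was -0.62 (SE 0.25, limma adjusted p = 0.648). On the 14th day 7.33% of all features were below 0 on every array.

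**Figure D3:**
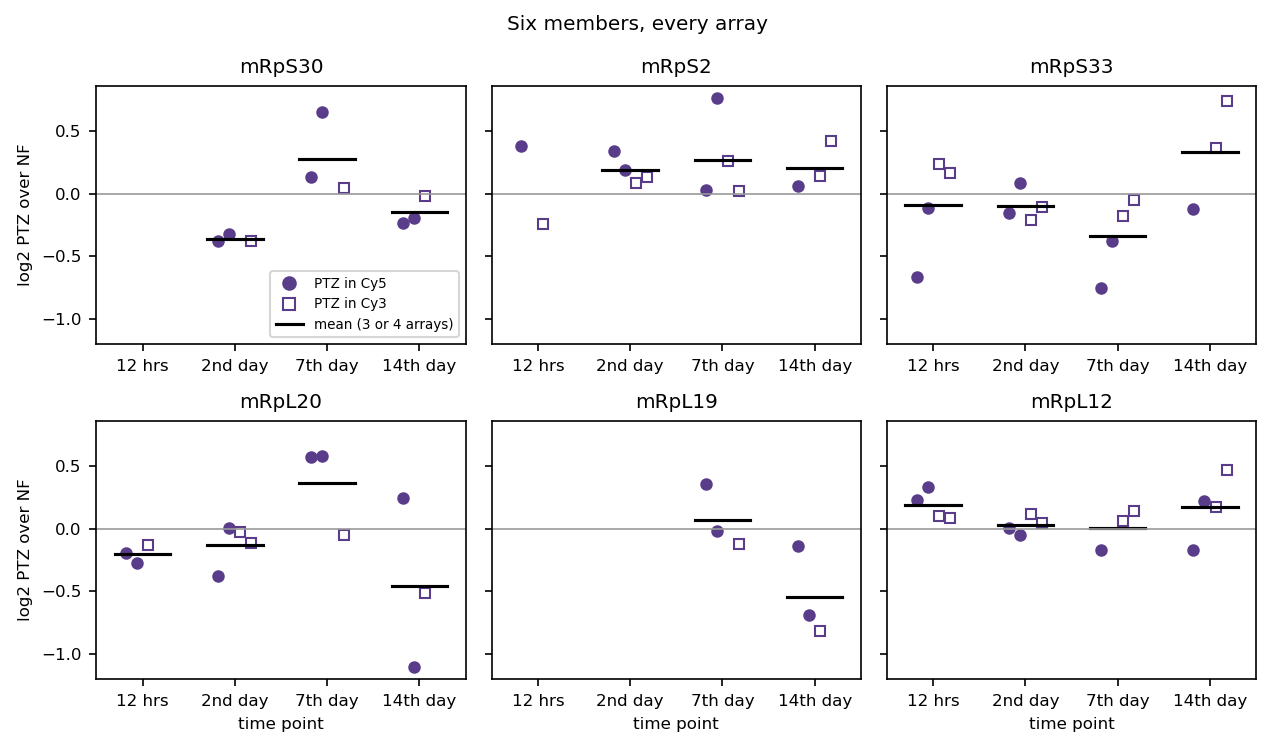
Log2 ratio of PTZ over NF of mRpS30, mRpS2, mRpS33, mRpL20, mRpL19 and mRpL12 on each array by time point, filled circles with PTZ in Cy5, open squares with PTZ in Cy3, and a line at the mean where 3 or 4 arrays gave a value. The mRpS30 values of the 2nd day lie together at -0.38 to -0.32, while those of mRpL20 on the 14th day run from -1.11 to 0.25.

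At 12 hrs the smallest p among the members belonged to mRpL12, the stalk protein through which elongation factors dock on the large subunit. It was above 0 on all 4 arrays, at 0.23, 0.33, 0.10 and 0.09 (mean 0.19, SD 0.12; 95% interval -0.05 to 0.43; limma adjusted p = 1.0), and near 0 on the 2nd day, with a mean of 0.03. These are averages of 2 pairs of rows, which gave -0.15 and 0.36 in replicate 3 and -0.00 and 0.18 in replicate 4, so that the pairs did not share a sign there. mRpS31 was at 0.23, 0.14 and 0.32 (mean 0.23) and mRpL40 at 0.39, 0.24, -0.02 and 0.14 (mean 0.19). mRpL38 had the highest large subunit mean, 0.21, from values between -0.06 and 0.41. Of the 23 members, 3 were above 0 and 3 below 0 on every array, where 6.6% and 6.46% of all features were. The lowest means were those of mRpL18, -0.26, and mRpS28, -0.25, each with an array far below 0 (-0.75 and -0.68) and another above 0. mRpS6 gave the widest split by dye, at 0.72 and 0.47 in replicates 1 and 2 but -0.17 and -0.52 in replicates 3 and 4, and was picked here after its values were seen.

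On the 2nd day the highest mean was that of mRpS29, the GTP-binding protein known in mammals as DAP3. It was at 0.18, 0.58 and -0.01 in replicates 1, 2 and 3 (mean 0.25, 95% interval -0.12 to 0.62), the mean resting on a single array. The large subunit members spanned only -0.13 (mRpL37) to 0.08 (mRpL38). mRpS35 was below 0 on all 4 arrays but by no more than 0.05, a pattern that 7.37% of all features shared, and was picked after its values were seen. The median over tested members lay close to 0 on each of the 4 arrays, at 0.01, -0.01, 0.01 and 0.01.

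On the 7th day mRpL54 had the lowest large subunit mean. It was at -0.56, -0.29, 0.06 and -0.30 (mean -0.27, SD 0.26; limma adjusted p = 0.589), lower in PTZ on 3 of 4 arrays. Without replicate 4 of the 7th day, 3 members had an unadjusted p under 0.05, mRpS33 lower and mRpL20 and mRpS18B higher, where 15.6% of all features did, and no feature was called. mRpS18B was at 0.40, 0.55 and 0.39 in replicates 1 to 3 and at -0.43 in replicate 4. The member medians on the 4 arrays were -0.08, 0.06, -0.07 and 0.01.

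After withdrawal, mRpL24 was above 0 on all 4 arrays, at 0.06, 0.43, 0.28 and 0.14 (mean 0.23, 95% interval -0.12 to 0.58), and mRpS6 below 0 on all 3 that measured it, at -0.28, -0.32 and -0.19 (mean -0.26, 95% interval -0.68 to 0.16). Neither interval left out 0. mRpS33 had the highest mean of the 22 members and mRpL19 the lowest. Member medians on the 4 arrays were -0.10, 0.22, 0.11 and 0.18, a spread between replicates (SD 0.14) larger than their mean of 0.10.

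The 4 time points share no sample, since each array carries its own NF pool, and were set against each other in 6 differences. limma called no member in any of them at an adjusted p under 0.19, where 0.0225% (2nd day minus 12 hrs), 0.135% (7th day minus 12 hrs), 0.0238% (7th minus 2nd day), 0% (14th day minus 12 hrs), 0.0525% (14th minus 2nd day) and 0% (14th minus 7th day) of all features were called. At an unadjusted p under 0.05 there were 0 of 18, 1 of 14, 2 of 17, 0 of 10, 0 of 13 and 3 of 21 members, against 2.32%, 6.14%, 6.29%, 2.18%, 3.41% and 7.65% of all features. The moderated F over all 16 arrays called none of the 9 members with values throughout (0.158% of all features), and none had an unadjusted p under 0.05 (5.28%). mRpL20 and mRpS33 came first (limma adjusted p = 0.948 for each), followed by mRpL50 and mRpS31 (limma adjusted p = 0.991 for each).

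The median member difference was -0.00 for the 2nd day minus 12 hrs, -0.18 for the 7th day minus 12 hrs, -0.05 for the 7th minus 2nd day, -0.17 for the 14th day minus 12 hrs, 0.02 for the 14th minus 2nd day and 0.05 for the 14th minus 7th day. Over all features the corresponding medians were 0.00, -0.05, -0.04, -0.00, 0.00 and -0.00. With 1 array left out, the member median for the 14th day minus 12 hrs ran from -0.18 to -0.01 (the last without 14th day replicate 1), for the 14th minus 2nd day from -0.04 (without 2nd day replicate 2) to 0.13 (without 14th day replicate 1) and for the 14th minus 7th day from -0.07 (without 7th day replicate 3) to 0.08 (without 14th day replicate 1), so that the 14th minus 2nd day and the 14th minus 7th day median each changed sign. Against 12 hrs, 10 of 14 members were lower on the 7th day, where 2602 of 4460 features were, and 8 of 10 on the 14th day, where 2023 of 3993 features were. Both counts use the same 12 hrs arrays. The 12 hrs values entering these differences are those in which arrays of opposite dye ran against each other.

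The widest spread of differences was between the 7th and the 14th day, from -0.83 (mRpL20) to 0.67 (mRpS33) over 21 members. Only 5 of the 21 had means of the same sign on both days, mRpS2, mRpL12 and mRpL40 above 0 and mRpL54 and mRpS6 below 0. Across these 21 members Pearson's r between the 14th and the 7th day means was -0.44 (Spearman -0.47), and across all 5881 features measured on both days it was -0.20 (Spearman -0.28), with 2338 of the same sign. These correlations are across genes, which share the arrays and are not independent replicates. The correlations and the counts of equal sign include 7th day replicate 4, the array with the conflicting label, and were not computed without it. Groups without overlap were found for 2 of the 21 members, mRpL19 and mRpS30, both lower on the 14th day, where 3.18% of all features were.

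**Figure D4:**
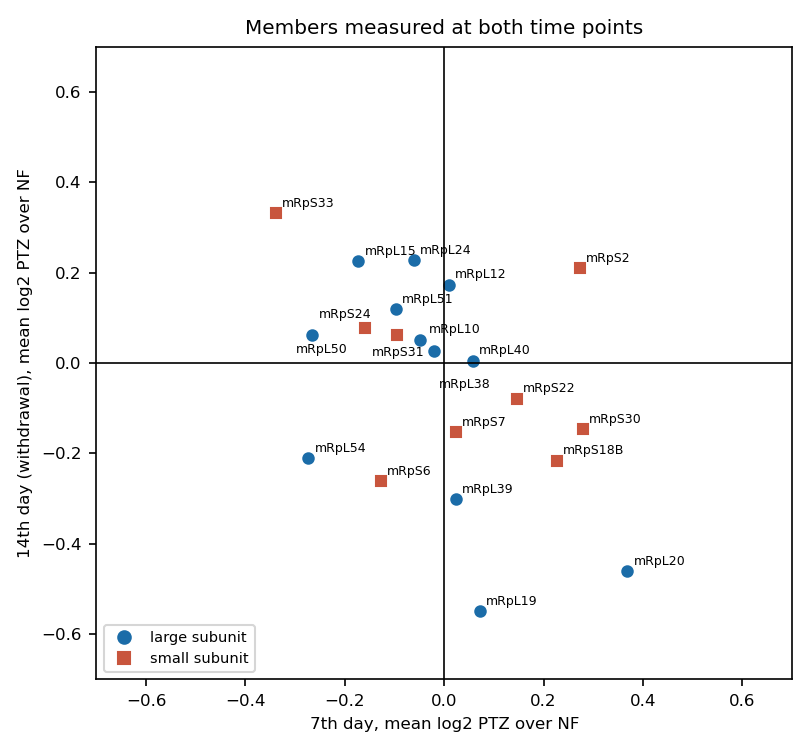
Mean log2 ratio of PTZ over NF on the 7th day (horizontal) and on the 14th day after withdrawal (vertical) for the 21 members tested on both, large subunit as blue circles and small subunit as red squares. The points lie mostly in the upper left and lower right, with 5 of 21 members of the same sign on both days.

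The members stood beside 3 related groups of genes. The 23 listed genes of mitochondrial translation and RNA found on the array, among them elongation factors, aminoacyl-tRNA synthetases and transcription factors of mitochondria, had 7, 6, 14 and 15 tested genes and medians of 0.10, 0.07, -0.03 and -0.07 at the 4 time points, with none called. On the 14th day 11 of 15 were below 0, where 3341 of 6464 features were. One, mtTFB2, a transcription factor of mitochondrial DNA, had an unadjusted p under 0.05 by limma, where 2.18% of all features did. Respiratory chain and ATP synthase genes, 41 on the array, had medians of 0.01, 0.01, -0.08 and 0.02, with none called. They too were taken by symbol, with related copies such as ATPsynbetaL, COX6AL and SdhAL kept in. On the 7th day the means of 21 of 27 tested genes were below 0, where 3591 of 7289 features were. On the single arrays 12 of 27, 15 of 19, 13 of 27 and 22 of 27 genes were below 0 in replicates 1 to 4.

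Cytosolic ribosomal proteins, 19 on the array, had medians of -0.04, 0.03, -0.17 and -0.01. They were taken by symbol, and related copies such as RpS5b, RpS10a and RpS19b were kept in. On the 7th day the means of 14 of 15 tested genes of this list were below 0, where 17 of 30 members and 3591 of 7289 features were. The arrays differed, with 13 of 15, 11 of 13, 6 of 14 and 11 of 15 genes below 0 in replicates 1 to 4. Replicate 4 is the array with the conflicting label. No cytosolic ribosomal protein was called there, and 0 had an unadjusted p under 0.05. Both lists split by dye on the 2nd day. The median difference of Cy5 minus Cy3 arrays there was 0.34 for cytosolic ribosomal proteins and 0.15 for the respiratory chain, against 0.03 for the members and 0.00 for all features. At 12 hrs these medians were 0.31 and 0.21, against 0.05 for the members and 0.01 for all features. The member medians cover values that ran both ways, 0.13 on the 2nd day and 0.12 at 12 hrs for members with a bacterial counterpart, and -0.07 and -0.13 for those found only in mitochondria. The part of the dye in these list medians was not tested. The difference between the lists was not tested either.

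**Figure D5:**
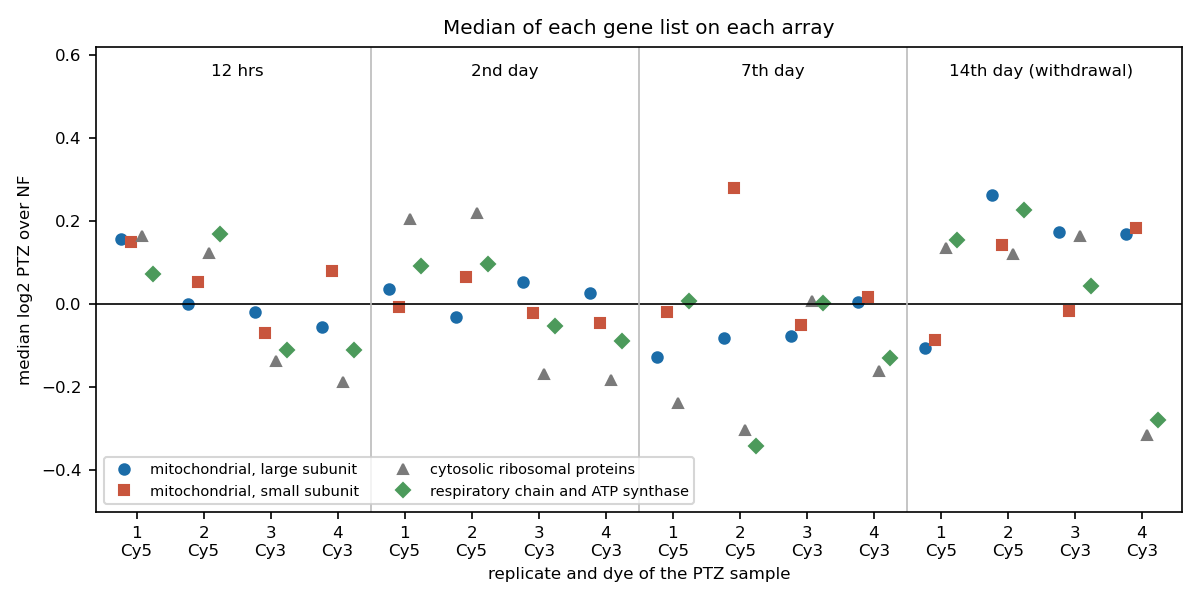
Median log2 ratio of PTZ over NF on each array for the large and small subunit members, the cytosolic ribosomal proteins and the respiratory chain genes, over the genes tested at that time point. On the 2nd day the cytosolic ribosomal proteins lie above 0 with PTZ in Cy5 and below 0 with PTZ in Cy3, while both mitochondrial subunits stay within 0.1 of 0.

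Duplicate spots of a pair agreed about as well for the members as elsewhere. The 2 spots of a pair differed by a median of 0.15 both in the members (466 pairs) and in all rows (110435 pairs). For the 6 members with 4 rows, the 2 pairs of rows gave values of the same sign in only 21 of 41 cases, with a median difference of 0.21. Separate pairs of a member thus often gave opposite directions, and this was not computed for all features. Fat body markers, which report on tissue other than brain and eye in the head, had medians of -0.21, -0.34, -0.09 and -0.08 over 3, 6, 6 and 7 tested genes of 11 on the array, with ranges from -0.50 to -0.08, -1.25 to 0.60, -0.58 to 0.24 and -0.37 to 0.44. One of them, fit, was called lower on the 2nd day (limma adjusted p = 0.0347), and none was called at the other time points. Their part in the member values was not tested.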

How the data were processed

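The authors deposited 1 table of log2 ratios of Cy5 over Cy3 with 27648 rows and 16 arrays, quantified in GenePix Pro 6.0 and ratio-normalized in Acuity 4.0 per the labels, after removal of weak, saturated, flagged or uneven spots. Replicates are separate pools of heads. Intensities were not analysed here, so depth is unknown, and the small number of arrays limits precision. No source used here gives the centring of the deposited values, whose array medians ran from -0.22 to 1.57. For this report, 53 values at the ceiling of 16.61 were set missing, each array was centred on its median, arrays with PTZ in Cy3 were multiplied by -1, and rows of a gene were averaged. Genes were named through the platform annotation and updated by identifier.

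Means of at least 3 of 4 arrays were tested against 0, and time points against each other, with limma 3.58.1 in R 4.3.3, two-sided, with Benjamini-Hochberg adjustment over all features and an adjusted p under 0.19. The limma fits were tested on simulated data. Members described singly are, per time point, those with the 4 smallest p and the highest and lowest mean per subunit, and those with the 4 smallest p of the F. The members, lists and tests were chosen with earlier results of these data known. Alternatives covered centring, dye, rows, arrays required, fit, threshold and SAM.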

Additional observations from a re-analysis of the deposited data

Results flagged for a closer look

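In 56 groups of 4 arrays a member had 1 array checked against the other 3, and 3 groups held an array far from the rest, where chance gives about 1 in 20. mRpL50 on the 2nd day was at 0.364 in replicate 1 and between -0.056 and -0.0095 in the others. mRpS9 on the 2nd day was at 0.1275 in replicate 2 and between -0.1025 and -0.075 in the others. mRpS18B on the 7th day was at -0.432 in replicate 4, the array with the conflicting label, and between 0.3855 and 0.552 in the others.

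mRpS30 had all its arrays on one side of 0 at one time point and on the other side at the next. The 7th minus 2nd day difference was 0.6385 (limma adjusted p = 0.735) and the 14th minus 7th day difference -0.4258 (adjusted p = 0.675), neither of which passed the test. Such opposite signs occurred in 2 of 93 member comparisons and in 1.21% of those of all features.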

How the results depend on the processing

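limma called no member at any time point or in any difference under the other centrings, fits, thresholds and array minimums that were run, or with any array left out. The exceptions among the calls were SAM, with 1 member (mRpS30) on the 2nd day, and an alternative added after seeing the data in which arrays with PTZ in Cy3 were not turned. Unturned, 7 members were called at 12 hrs (mRpL30, mRpL38, mRpL50, mRpS6, mRpS9, mRpS28 and mRpS33), 6 of them above 0, where 32.1% of all features were called. On the 2nd day 0 of 24 members and 7.92% of all features were called unturned. Whether swapped arrays were turned before deposit is not stated. A dye effect and the direction of the ratios therefore cannot be told apart at 12 hrs or on the 2nd day.

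Members with an unadjusted p under 0.05 were 0, 2, 1 and 1 at the 4 time points, and moved as follows. At 12 hrs there were 3 with a dye term, 1 with single rows, 1 in a fit over 16 arrays with a replicate block and 6 unturned. The 2nd day gave 1 with values as deposited, with centring on the mean ratio, with all 4 arrays required, in a fit over 16 arrays and unturned, and 0 with trend and robust eBayes or the replicate block. The 7th day gave 0 as deposited, with all 4 arrays required, with trend and robust eBayes and in the 16-array fit, and 2 with single rows. The 14th day gave 0 as deposited, centred on the mean ratio, with all 4 arrays required, with trend and robust eBayes and unturned, 2 with a dye term, single rows or the 16-array fit, and 3 with the replicate block. Leaving out 1 array gave 1 to 1, 0 to 3 and 0 to 2 members on the 2nd, 7th and 14th day. Without 2nd day replicate 1, 2, 3 or 4 only mRpS30 was left. Without 14th day replicate 1 mRpL20 joined mRpL19, without replicate 2 or 3 there were 0, without 7th day replicate 1 or 2 there were 0, and without 7th day replicate 3 mRpL54 took the place of mRpS33.

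As deposited, the median over all features was 0.09 (7th day) and 0.25 (14th day). The shift of a single gene depended on which arrays measured it. The array medians of the 14th day, for example, ran from -0.01 in replicate 3 to 1.57 in replicate 1. The median of the member means was then 0.072 on the 7th and 0.29 on the 14th day, that of the small subunit 0.25 and 0.23, that of the large subunit 0.30 on the 14th day, and the median differences 0.076 (14th day minus 12 hrs), 0.26 (14th minus 7th day) and -0.27 (7th minus 2nd day). With all 4 arrays required the medians at 12 hrs were 0.10 for all members, the large subunit and the small subunit, and the 7th minus 2nd day difference 0.083, over fewer members. The 2nd day median was 0.0059 unturned and -0.017 to 0.012 with an array left out. The 7th day large subunit median was -0.10 to -0.020 with an array left out. With 7th day replicate 4 counted at the 14th day, the small subunit median there was 0.077.

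Directions turned for some members that limma did not call. As deposited, mRpL19 and mRpL20 on the 14th day were at 0.29 and 0.37 and mRpS31 on the 7th day at 0.031. With a dye term mRpS31 was at 0.0073 (2nd day) and -0.037 (14th day) and mRpL50 at -0.0070 (14th day). With an array left out, mRpL50 ran from -0.085 to 0.097 (12 hrs), -0.032 to 0.11 (2nd day) and -0.024 to 0.20 (14th day), mRpS31 from -0.14 to 0.11 (2nd day), -0.19 to 0.014 (7th day) and -0.075 to 0.26 (14th day), and mRpS33 from -0.20 to 0.097 (12 hrs). The values as deposited differ from the main ones only in that array medians were not subtracted. On the 14th day mRpL19 and mRpL20 had values in replicates 1, 2 and 3, whose array medians were 1.57, 0.93 and -0.01. The cause of the other turns was not tested.

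Nothing in the labels says that equal replicate numbers mark shared animals, and of 24 same-number correlations of deviations 6 were over 0.1, with no pair of time points having all over 0.1. With the replicate block the calls over all features in the 6 differences were 0, 4, 0, 0, 0 and 0, against 1, 6, 1, 0, 2 and 0 without it, and no member was called either way. With 3 or 4 arrays and 22 to 30 of 47 members tested, differences under 2-fold could be missed, most of all on the 14th day. Larger ones could be missed in members not tested, and on the 14th day in mRpL19 and mRpL20, whose intervals passed 2-fold. All these limits hold only if turning the arrays with PTZ in Cy3 was right.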
